A study of Mus musculus with 8 samples.

Results

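The genes described here are those with strongly lower RNA in embryonic stem cells (ESCs) that lack Hdac3, in both knockout clones and at both time points. Reads per gene were scaled to CPM, that is 1000000 times the gene's count divided by the sample's total count. A gene was taken when its lowest value in the 4 WT samples was at least 5 CPM and its highest value in the 4 Hdac3KO samples was at most 0.5 times that lowest WT value, leaving out Hdac3. This rule gave 120 genes of the 24542 in the tables, out of 9603 whose lowest WT value reached 5 CPM. The genes were therefore chosen on the WT and Hdac3KO levels, and how far they lie apart is given as a description with no test. All 120 lay below WT by the rule, and in 25.0% of the 9603 genes all 4 Hdac3KO values lay below all 4 WT values. The same rule turned round, with Hdac3KO as the higher genotype, held for 71 of 9475 genes.

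The cells were the female mouse ESC line TX1072, a hybrid of Mus musculus castaneus (Cast) and C57BL/6 (B6), in which doxycycline (DOX) switches on Xist from the B6 X chromosome. WT is the parental line, and the Hdac3KO samples came from 2 independent deletion clones made in it with CRISPR/Cas9, so the pair of Hdac3KO replicates is a pair of clones. Each genotype was sampled without DOX (0 h) and after 24 h of DOX, with 2 samples in each of the 4 groups. All cells were grown without feeders in serum medium with LIF and 2 kinase inhibitors (2i), and every group carries the inducible Xist allele. The labels do not say which clone is replicate 1. HDAC3 is the catalytic histone deacetylase of the NCoR and SMRT corepressor complexes, which remove acetyl groups from histones at the promoters and enhancers they are recruited to. ESCs in 2i and LIF are in the naive state, in which most genes of differentiated lineages are low. DOX-induced Xist coats the B6 X chromosome and starts its silencing.

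Hdac3 itself stood at 39.4 and 43.2 CPM in WT at 0 h and 42.1 and 43.4 at 24 h. The Hdac3KO samples held 5.72 and 7.22 CPM at 0 h and 5.54 and 6.90 at 24 h, which is 6.62-fold lower on the means, with no overlap. Total counts ran from 6940375 to 17125156 per sample, so 5 CPM stood for 34.7 to 85.6 reads. The 10 ESC markers examined, Pou5f1, Sox2 and Nanog among them, summed to 6097 to 6536 CPM in WT and 6673 to 7000 in Hdac3KO. The sum does not show how each marker changed: Tdgf1, also among the 10, was lower in Hdac3KO (its values are given below with Lefty1 and Lefty2). Of 10 feeder fibroblast markers, 5 (Col3a1, Postn, Lum, Dcn and Acta2) were under 1 CPM in every sample, and the 10 summed to 45.5 to 66.9 CPM in WT and 34.2 to 46.1 in Hdac3KO; the part of these markers in the results was not tested. Chromosome 16 stood apart: its median B6 share was between 0.332 and 0.341 in the WT samples and 0.333 in both samples of Hdac3KO replicate 1, but 0.5 and 0.493 in those of replicate 2. The 5 members on that chromosome are given separately below.

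**Figure D1:**
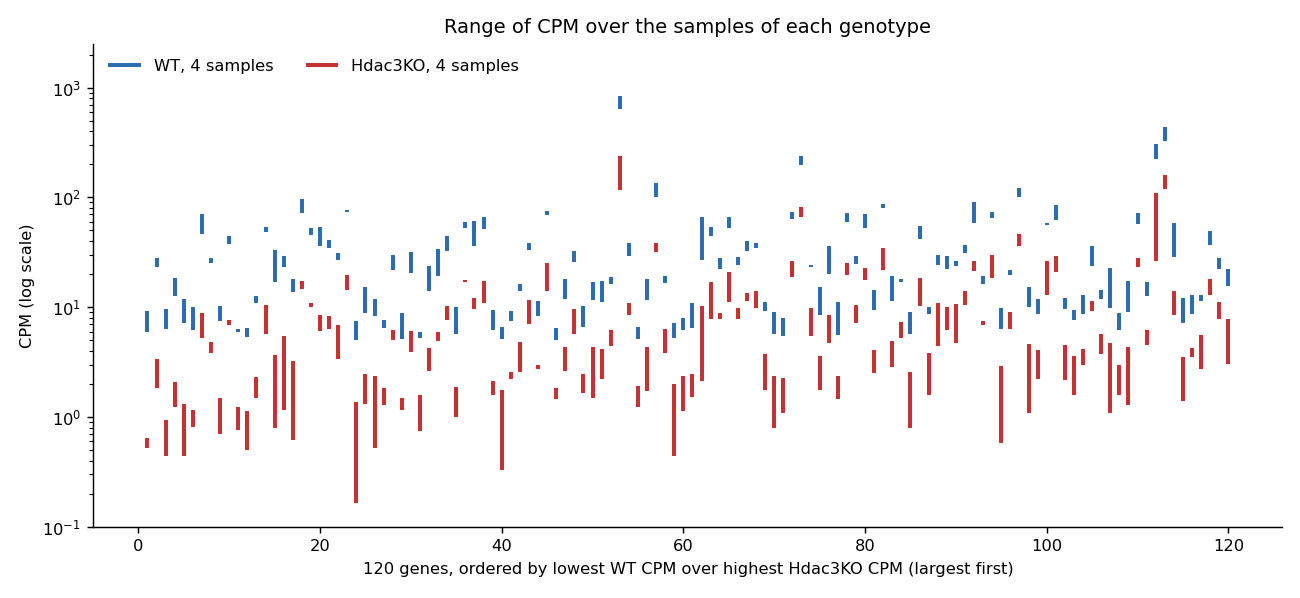
Range of CPM (log scale) over the 4 WT samples (blue) and the 4 Hdac3KO samples (red) for the 120 genes, ordered from the largest to the smallest ratio of lowest WT to highest Hdac3KO value. The ratio runs from 9.20 for Rhox9 on the left to 2.02 for Parp14 on the right, and the genes cover levels from about the 5 CPM minimum to the 635 CPM of Klhl13.

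The 120 genes differed in how far apart the genotypes lay. The ratio of the lowest WT to the highest Hdac3KO value had a median of 2.64; it lay between 2 and 3 for 85 genes, between 3 and 4 for 14 and above 4 for 21. The mean WT level over the mean Hdac3KO level ran from 2.53-fold (Ddc) to 13.8-fold (Rhox9), with a median of 4.06-fold, and was over 4-fold for 62 genes. Most members were of modest level: the lowest WT value had a median of 16.8 CPM, 42 genes were below 10 CPM and 21 above 50 CPM. Just inside the limit on the ratio were Parp14 (2.02), Madd (2.02) and H1f0 (2.02), and just outside were Cd24a (1.998), Lgr4 (1.99) and Obsl1 (1.97). At the floor of 5 CPM, Ccdc102a, Mcf2l and Nat8l came in with lowest WT values of 5.04, 5.06 and 5.13, while Sox1 and Pde10a (4.90 each) and Zdhhc2 (4.86) stayed out. None of the members was at 0 in any sample. The smallest count in a Hdac3KO sample was 2 reads, 15 members had at least 1 Hdac3KO count under 10, and the smallest WT count was 35.

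All 120 were protein coding and could be placed on the GRCm38 annotation. Before the values by role, 4 promoters are printed because the members were lower together: of the 84 members in the RefSeq promoter table, 45 have a window that overlaps no exon of GENCODE M21, and among these the pair with the widest gap and the pair with the highest lowest WT CPM are shown. The windows are the 250 bases before the annotated start in GRCm38.p6, written 5′ to 3′ on the gene's strand, for Ap3b2 (chr7:81493926-81494175, minus strand), Pou4f2 (chr8:78436648-78436897, minus strand), Klhl13 (chrX:23365083-23365332, minus strand) and Mov10 (chr3:104818564-104818813, minus strand). Capitals mark matches to the letters searched on either strand, namely GGGCGG for the box bound by SP and KLF factors, CCAAT for the box of that name, CTTTGAT for TCF/LEF factors, AAGGTCA for ESRRB, ATGCAAAT for the octamer of POU factors, TTCAGCACC for the left part of the REST element, and CACGTG for the E-box; the last pair of matches in Pou4f2 overlaps.
Ap3b2 promoter: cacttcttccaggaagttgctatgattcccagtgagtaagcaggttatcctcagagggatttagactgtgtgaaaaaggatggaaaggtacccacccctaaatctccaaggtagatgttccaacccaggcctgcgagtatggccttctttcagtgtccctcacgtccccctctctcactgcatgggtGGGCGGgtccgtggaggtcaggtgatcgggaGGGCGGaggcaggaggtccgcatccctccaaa
Pou4f2 promoter: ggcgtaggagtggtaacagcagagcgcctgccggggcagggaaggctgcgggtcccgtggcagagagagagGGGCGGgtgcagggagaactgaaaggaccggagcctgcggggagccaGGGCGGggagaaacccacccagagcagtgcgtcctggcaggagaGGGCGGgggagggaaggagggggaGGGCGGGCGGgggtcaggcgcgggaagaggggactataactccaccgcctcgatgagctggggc
Klhl13 promoter: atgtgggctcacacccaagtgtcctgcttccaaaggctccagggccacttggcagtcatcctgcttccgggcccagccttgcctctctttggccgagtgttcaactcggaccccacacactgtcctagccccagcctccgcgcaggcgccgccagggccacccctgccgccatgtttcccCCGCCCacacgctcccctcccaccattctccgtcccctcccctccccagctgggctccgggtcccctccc
Mov10 promoter: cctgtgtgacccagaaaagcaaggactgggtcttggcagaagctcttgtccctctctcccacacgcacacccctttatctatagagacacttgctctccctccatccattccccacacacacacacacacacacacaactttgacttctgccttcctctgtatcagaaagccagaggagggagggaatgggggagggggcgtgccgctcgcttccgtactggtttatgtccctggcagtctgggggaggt

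Pou4f2 held 5 GGGCGG boxes, Ap3b2 held 2, Klhl13 held 1, and Mov10 held none of the 7 motifs. Over windows of 300 bases (250 before the start and 50 after it), GGGCGG was present in 63.1% of the 84 member promoters and in 68.6% of the 7537 promoters of genes with a lowest WT level of 5 CPM or more. CCAAT was present in 19.0% of the members and 39.99% of that background, CACGTG in 4.76% and 11.2%, and CTTTGAT in 5.95% and 2.46%. AAGGTCA was found in 4.76% against 2.81%, ATGCAAAT in 1.19% against 1.29%, and TTCAGCACC in 0 of 84 against 0.438%. The ratio of observed to expected CpG had a median of 0.635 in the members and 0.801 in the background, and was under 0.4 in 25.0% and 8.8%, while GC content was similar (60.7% and 61.7%). CpG-poor windows were therefore a larger part of the members than of the background, with no test made and with matches being letters, not shown binding sites. Members also covered longer stretches of the genome, with a median span of 42.0 kb against 25.9 kb, and 30.8% against 13.2% over 100 kb.

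**Figure D2:**
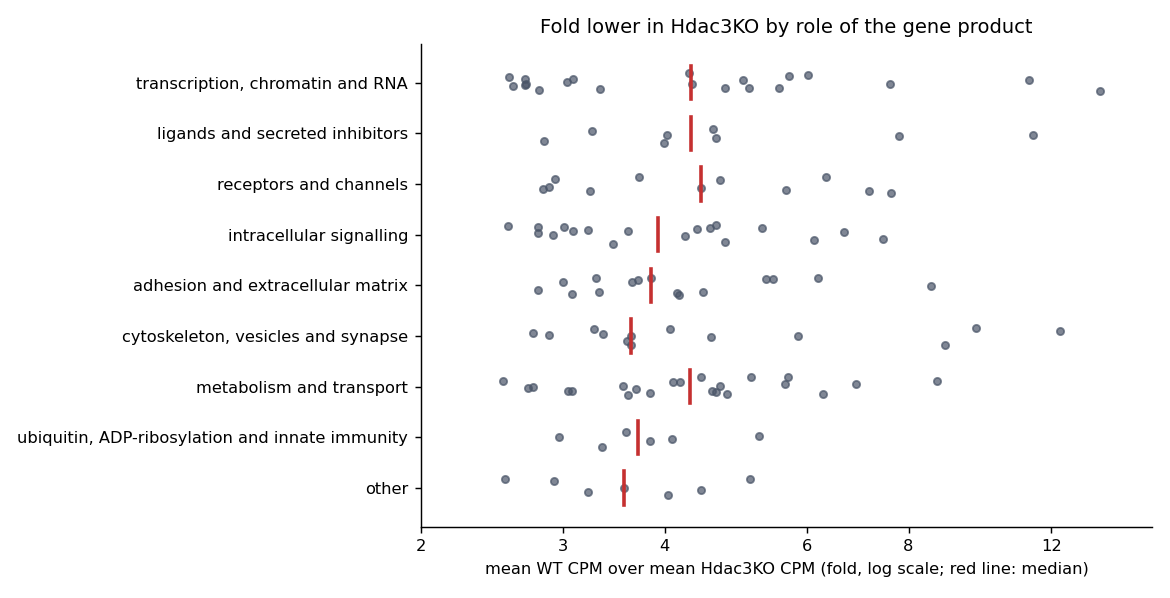
Mean WT CPM over mean Hdac3KO CPM (fold, log scale) of each of the 120 genes, grouped by the usual role of the product, with the median of each group as a red line. Group medians lie between 3.57-fold and 4.44-fold, and every group runs from below 3-fold to above 5-fold.

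For description, each gene was put under 1 role after its values were known. The largest groups were metabolism and transport (22 genes) and transcription, chromatin and RNA (20), followed by intracellular signalling (18), adhesion and extracellular matrix (15), cytoskeleton, vesicles and synapse (13), receptors and channels (11), ligands and secreted inhibitors (8) and ubiquitin, ADP-ribosylation and innate immunity (6), with 7 others. Median folds were close to each other, from 3.57 in the others to 4.44 in receptors and channels. For lists of pathway genes mentioned below, the change of all list genes tested is counted with edgeR's quasi-likelihood test on total counts (Hdac3KO against WT over both times, Benjamini-Hochberg adjusted p under 0.05). The test takes the 4 Hdac3KO samples as separate, although they are 2 clones sampled at 2 times. Its p-values therefore do not measure the spread between clones. Among all 13387 genes tested, 16.3% were lower and 15.3% higher in Hdac3KO by that test, and the median log2 difference was -0.0013. A further fit had a block for the replicate number within each genotype, and its contrast set Hdac3KO replicate 1 (1 clone) against WT replicate 1. In that fit 23.6% of all genes were lower and 22.8% higher. From the first fit to this one, the number lower moved by at most 1.5 times in each list. The number higher moved by more than that in axon guidance (7 to 12), the Wnt list (5 to 11), FGF signalling (4 to 7) and extracellular matrix (2 to 6). It also did so in the neuronal cytoskeleton (1 to 3), interferon (3 to 5), naive pluripotency (6 to 10) and Hedgehog (0 to 2). These moves mix the change of samples with the block and do not show how the difference over both clones depends on it. Those lists include members, which the rule made lower, and were chosen with earlier results of these data known. The counts are therefore a description only.

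Transcription factors and chromatin proteins held the gene with the widest gap. Rhox9, a homeobox gene of the X-linked Rhox cluster known from reproductive tissues, had low levels in WT and was near absent in Hdac3KO. The WT samples held 8.78 and 9.28 CPM of Rhox9 at 0 h and 8.303 and 5.91 at 24 h, and the Hdac3KO samples 0.642 and 0.581 at 0 h and 0.527 and 0.591 at 24 h. The lowest WT sample was 9.20 times the highest Hdac3KO sample; members of the Rhox family resemble each other, so reads may have been divided between copies. For Setbp1, Hdac3KO had 0.934 and 0.664 CPM at 0 h and 0.439 and 0.69 at 24 h, where WT had 9.64 and 7.59 at 0 h and 7.19 and 6.34 at 24 h. Setbp1 encodes a DNA-binding partner of the SET oncoprotein and was 11.3-fold lower, by 11.2-fold and 11.4-fold in the clones. CPM of Pou4f2 was 6.68 and 6.24 (0 h) and 10.02 and 8.93 (24 h) in WT and 0.818 and 1.16 (0 h) and 1.14 and 1.08 (24 h) in Hdac3KO. Pou4f2 is a POU homeodomain factor of retinal ganglion cells. Its WT levels were higher at 24 h than at 0 h, but this change did not pass (log2 0.57, SE 0.24, edgeR adjusted p = 0.627). The Hdac3KO values were low at both times, so no difference in the change is read from them. En2, the engrailed factor of the midbrain and hindbrain, held 5.99 to 6.34 CPM in WT and 0.759 to 1.23 in Hdac3KO, with no overlap.

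Sall3 and Dppa3 are the members closest to the pluripotency network. In WT, Sall3 reached 125 and 105 CPM at 0 h and 135 and 102 at 24 h, and in Hdac3KO 35.8 and 34.7 at 0 h and 31.6 and 38.3 at 24 h. Sall3 is a zinc finger protein of the Spalt family, and it was 3.33-fold lower with Hdac3KO samples close to each other. At 0 h, Dppa3 had 79.3 and 72.7 CPM in WT and 14.7 and 16.6 in Hdac3KO, and at 24 h it had 79.4 and 96.4 in WT and 15.8 and 17.3 in Hdac3KO. Dppa3 (Stella), which protects DNA methylation in the egg and marks germ cell precursors, was 5.09-fold lower, with 4.83-fold and 5.38-fold in the clones. Fut9, the fucosyltransferase that makes the SSEA-1 antigen of ESCs, held 51.2 to 66.4 CPM in WT and 10.99 to 17.2 in Hdac3KO. Of 31 naive pluripotency and germ cell precursor genes tested, 14 were lower and 6 higher (median log2 -0.16), and these 3 were the members.

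Other transcriptional members had higher levels or a role in RNA. Mov10 stood at 438 and 332 CPM in WT at 0 h and 413 and 327 at 24 h, against 159.5 and 119 in Hdac3KO at 0 h and 156 and 126 at 24 h. Mov10 is an RNA helicase that restrains retroelements, and in every group replicate 1 was above replicate 2, so this replicate difference was shared by the genotypes. The WT samples held 67.4 and 71.5 CPM of Gli3 at 0 h and 57.7 and 62.2 at 24 h, and the Hdac3KO samples 28.1 and 25.4 at 0 h and 23.03 and 23.2 at 24 h. Gli3 is the Hedgehog pathway factor that is processed to a repressor, and its 2.60-fold difference was among the smaller ones. Of 14 Hedgehog genes tested, 7 were lower and 0 higher, with a median log2 of -0.60 and Gli3 as the only member. Zfp827, a zinc finger gene, held 19.99 to 36.3 CPM in WT and 4.73 to 8.44 in Hdac3KO. The remaining members of the group were Ebf1, Bnc2, Bhlhe40, Khdc3, Asxl3, L3mbtl3, Chd3, Smarca2, H1f0, Elavl3 and Celf2, which lay between 2.57-fold (L3mbtl3) and 5.699-fold (Bnc2) lower; Chd3 and Smarca2 are chromatin remodellers, H1f0 is the linker histone H1.0, and Elavl3 and Celf2 bind RNA in neurons.

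Among secreted signals, both Lefty genes were lower. Lefty1 and Lefty2 encode extracellular inhibitors of Nodal, lie 35.9 kb apart on chromosome 1 (chr1:180935022-180938400 and chr1:180893108-180899103, GRCm38) and are themselves targets of Nodal signalling. For Lefty1, Hdac3KO had 1.64 and 3.65 CPM at 0 h and 0.791 and 2.86 at 24 h, where WT had 33.02 and 31.7 at 0 h and 20.3 and 16.9 at 24 h. CPM of Lefty2 was 307 and 293 (0 h) and 269.6 and 226 (24 h) in WT and 40.99 and 110.2 (0 h) and 26.5 and 96.3 (24 h) in Hdac3KO. For both genes every Hdac3KO sample lay below every WT sample, Hdac3KO replicate 2 lay above replicate 1 at both times, and all groups were lower at 24 h than at 0 h in each replicate. The coding sequences of the pair are similar, so some reads may have been split between them. Of 19 genes of Nodal and Lefty signalling tested, 9 were lower and 6 higher with a median log2 of -0.29. The pathway did not move one way, and 2 further genes, picked after their values were seen, show it. The co-receptor gene Tdgf1 had a mean of 202 CPM in WT and 68.5 in Hdac3KO (log2 -1.51, SE 0.22, edgeR adjusted p = 0.00128). By contrast, the ligand gene Nodal had 40.4 and 55.7 CPM (log2 0.51, SE 0.11, edgeR adjusted p = 0.00952). The SE and p-values of both genes take the 4 samples of the 2 clones as separate.

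**Figure D3:**
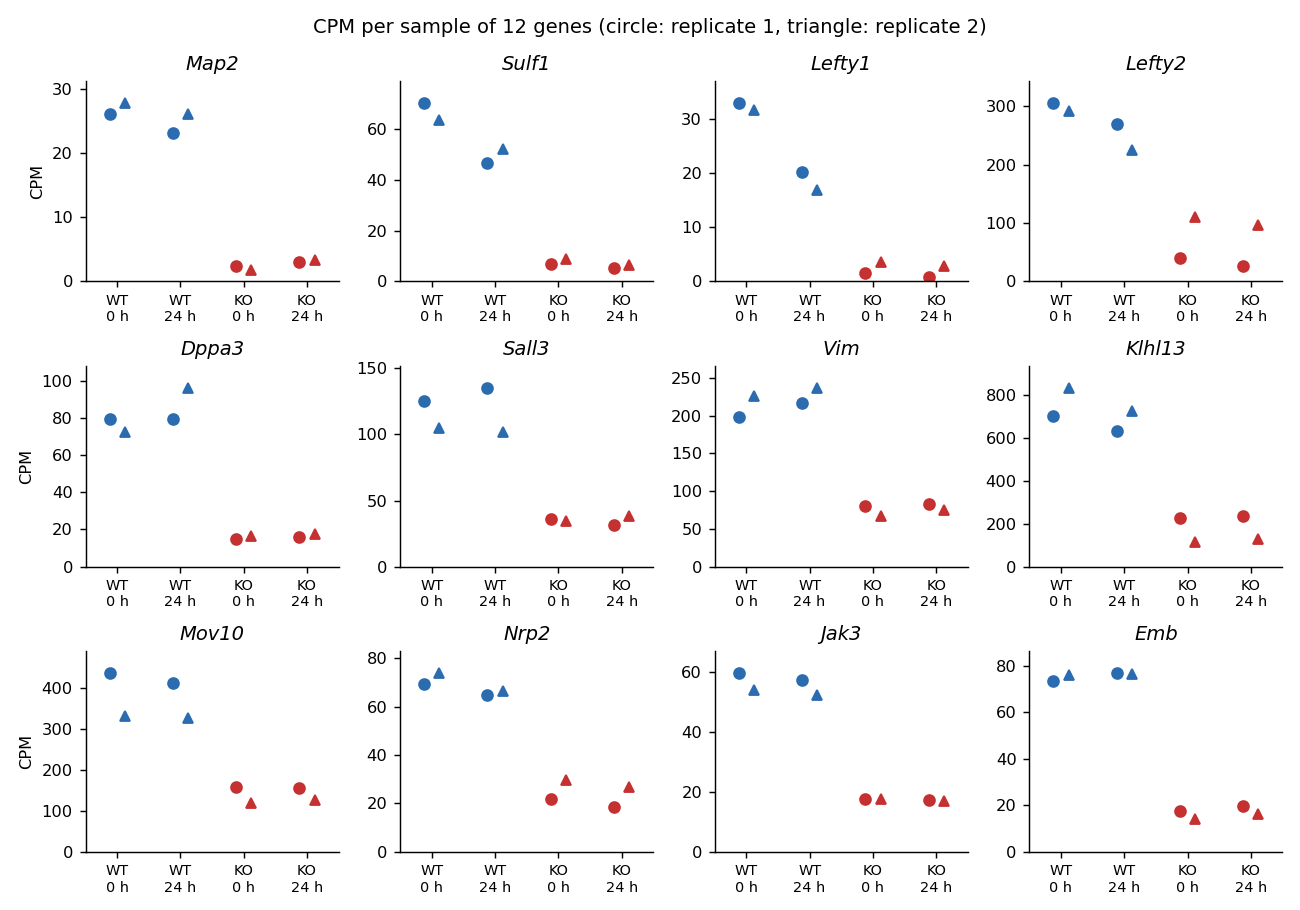
CPM in each of the 8 samples for 12 of the genes, by genotype and time, with WT in blue, Hdac3KO in red, circles for replicate 1 and triangles for replicate 2; each vertical axis starts at 0. In all 12 panels the 4 Hdac3KO samples lie below the 4 WT samples, and in Lefty1, Lefty2, Klhl13 and Nrp2 the Hdac3KO replicates (clones) lie apart from each other at both times.

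Axon guidance cues and their receptors were present on both sides. In WT, Nrp2 reached 69.2 and 73.96 CPM at 0 h and 64.7 and 66.6 at 24 h, and in Hdac3KO 21.8 and 29.8 at 0 h and 18.6 and 26.6 at 24 h. Nrp2 is a co-receptor for class 3 semaphorins and VEGF, and its replicate 2 was the higher clone at both times. At 0 h, Robo1 had 57.97 and 55.7 CPM in WT and 25.1 and 13.1 in Hdac3KO, and at 24 h it had 56.6 and 56.05 in WT and 26.2 and 13.01 in Hdac3KO. Robo1, the receptor for Slit proteins, lies on chromosome 16, and its replicate 2 values lay below those of replicate 1 at both times. Slit2, a ligand of Robo1, was also a member, 4.63-fold lower. Sema7a, a membrane-anchored semaphorin, held 34.4 to 38.3 CPM in WT and 9.76 to 14.1 in Hdac3KO, and Dpysl2, which carries the semaphorin signal to microtubules, held 31.1 to 37.02 CPM in WT and 10.5 to 14.1 in Hdac3KO. Sema5a and Dpysl5 were 4.03-fold and 4.07-fold lower. Of 59 axon guidance genes tested, 25 were lower and 7 higher (median log2 -0.41), and 7 were members.

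Further ligands and receptors ranged more widely. F2rl1 stood at 26.5 and 27.8 CPM in WT at 0 h and 25.1 and 27.2 at 24 h, against 4.09 and 3.82 in Hdac3KO at 0 h and 4.83 and 4.14 at 24 h. F2rl1 encodes the protease-activated receptor PAR2 and was 6.32-fold lower, with little spread among the samples of either genotype. Its mean was 26.7 ± 1.17 CPM in WT and 4.22 ± 0.434 in Hdac3KO. The SD is over 4 samples of both times, which in Hdac3KO are 2 clones and in WT 1 line. Trh, the precursor of thyrotropin-releasing hormone, varied among the WT samples, with 36.9 and 66.1 CPM at 0 h and 26.9 and 42.9 at 24 h, beside 3.796 and 10.3 and 2.11 and 6.01 in Hdac3KO. The WT samples held 29.5 and 25.6 CPM of Adgrg6 at 0 h and 23.3 and 24.9 at 24 h, and the Hdac3KO samples 1.17 and 4.73 at 0 h and 2.28 and 5.42 at 24 h. Adgrg6 is an adhesion G protein-coupled receptor required for myelination by Schwann cells, and its clones lay apart, with replicate 2 higher. For Fgfr2, Hdac3KO had 4.73 and 3.65 CPM at 0 h and 2.46 and 1.08 at 24 h, where WT had 22.9 and 22.2 at 0 h and 12.4 and 9.798 at 24 h. Fgfr2, a receptor tyrosine kinase for FGFs, was lower at 24 h than at 0 h in both genotypes. Cnpy1, a regulator of FGF receptor signalling whose gene lies 28.7 kb from En2 on chromosome 5, held 24.8 to 29.4 CPM in WT and 7.18 to 10.5 in Hdac3KO. Of 30 genes of FGF signalling and its ERK feedback tested, 5 were lower and 4 higher (median log2 -0.02), a share lower of 16.7% that is near the 16.3% of all genes.

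Channel genes were few. Kcnab2, an auxiliary subunit of voltage-gated potassium channels, held 5.33 to 6.53 CPM in WT and 0.498 to 1.14 in Hdac3KO. Of 25 channel genes tested, 11 were lower and 4 higher, with a median log2 of -0.12. Pdgfc and Osm among the ligands, and Ntrk3, Lpar6, Paqr8 and Lrp3 among the receptors, were also in these groups, between 2.88-fold (Paqr8) and 4.59-fold (Osm) lower. No member came from the Wnt and beta-catenin list, although 19 of its 54 tested genes were lower and 5 higher (median log2 -0.22).

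Inside the cell, adaptors and regulators of small GTPases stood beside kinases. CPM of Elmo1 was 53.3 and 49.4 (0 h) and 50.3 and 48.6 (24 h) in WT and 8.18 and 10.5 (0 h) and 5.71 and 8.67 (24 h) in Hdac3KO. Elmo1 partners with DOCK proteins to activate Rac. In WT, Dok2 reached 10.2 and 7.93 CPM at 0 h and 7.49 and 7.64 at 24 h, and in Hdac3KO 1.28 and 1.49 at 0 h and 0.703 and 0.985 at 24 h. Dok2 is an adaptor that dampens Ras signalling downstream of tyrosine kinases and was 7.44-fold lower. At 0 h, Jak3 had 59.6 and 53.9 CPM in WT and 17.5 and 17.4 in Hdac3KO, and at 24 h it had 57.2 and 52.3 in WT and 17.3 and 17.05 in Hdac3KO. Jak3, a cytokine receptor kinase of lymphocytes, had almost the same level in all 4 Hdac3KO samples; its neighbour B3gnt3 on the opposite strand, 0.2 kb away, was also a member. Irak3, which restrains Toll-like receptor signalling, held 21.8 to 29.9 CPM in WT and 5.01 to 6.19 in Hdac3KO. The others were Mcf2l, Plce1, Plekha2, Plekha4, Mapk8ip1, Rps6kl1, Rps6ka4, Ppp2r2c, Dab1, Arhgdib, Madd, Tbc1d9 and Camkv, between 2.57-fold (Madd) and 6.66-fold (Mcf2l) lower.

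Adhesion molecules were also among the members. Emb stood at 73.4 and 75.9 CPM in WT at 0 h and 76.96 and 76.4 at 24 h, against 17.6 and 14.3 in Hdac3KO at 0 h and 19.9 and 16.1 at 24 h. Emb (embigin) is an immunoglobulin-family partner of monocarboxylate transporters, and its WT samples had a mean of 75.7 ± 1.55 CPM (SD over the 4 samples of both times). Epcam, the epithelial adhesion molecule of ESCs, held 59.1 to 72.04 CPM in WT and 19.6 to 25.05 in Hdac3KO. The WT samples held 44.2 and 37.5 CPM of Ctnnd2 at 0 h and 39.2 and 37.9 at 24 h, and the Hdac3KO samples 7.07 and 6.88 at 0 h and 7.56 and 7.69 at 24 h. Ctnnd2 (delta-catenin) binds cadherins in neurons, and its clones were alike, at 5.43-fold and 5.45-fold. Cdh2 (N-cadherin) and Cdh3 (P-cadherin) were 4.14-fold and 5.34-fold lower. Of 35 adhesion and junction genes tested, 23 were lower and 3 higher (median log2 -0.62), with 7 members. Beside this, 10 epiblast markers, Cdh2 among them, summed to 597 to 648 CPM in WT and 406 to 470.0 in Hdac3KO, and without Cdh2 to 561 to 605 and 398 to 461; Fgf5 of that list was under 1 CPM in every sample, and the part of these markers in the result was not tested.

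Extracellular matrix members included enzymes that act on it. For Sulf1, Hdac3KO had 6.95 and 8.79 CPM at 0 h and 5.27 and 6.31 at 24 h, where WT had 70.6 and 63.8 at 0 h and 46.7 and 52.3 at 24 h. Sulf1 removes sulfate groups from heparan sulfate outside the cell, and its highest Hdac3KO sample was 5.31 times below its lowest WT sample. CPM of Lamb1 was 63.7 and 66.96 (0 h) and 69.5 and 74.3 (24 h) in WT and 21.02 and 18.99 (0 h) and 26.6 and 22.7 (24 h) in Hdac3KO. Lamb1 is the beta-1 chain of laminin and averaged 68.6 ± 4.48 CPM in WT and 22.3 ± 3.24 in Hdac3KO (SD over the 4 samples of both times). Loxl4, a lysyl oxidase that crosslinks collagen, held 10.9 to 12.5 CPM in WT and 1.48 to 2.34 in Hdac3KO, Col27a1 held 11.3 to 19.3 CPM in WT and 2.86 to 4.96 in Hdac3KO, and Aebp1 held 16.4 to 18.96 CPM in WT and 4.43 to 6.15 in Hdac3KO. Of 31 matrix genes tested, 16 were lower and 2 higher (median log2 -0.34), and of 27 heparan sulfate genes 9 were lower and 4 higher (median log2 -0.19). Lrrn2, Lrrn4 and Tpbg, cell surface proteins with leucine-rich repeats, were 2.79-fold, 4.17-fold and 3.65-fold lower.

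Cytoskeletal genes of neurons held the widest gap after Rhox9. In WT, Map2 reached 26.2 and 27.9 CPM at 0 h and 23.1 and 26.1 at 24 h, and in Hdac3KO 2.39 and 1.82 at 0 h and 3.08 and 3.35 at 24 h. Map2 stabilises microtubules in dendrites and lies at chr1:66175273-66442583; its lowest WT sample was 6.89 times its highest Hdac3KO sample, and both clones were lower to the same degree (9.44-fold and 9.98-fold). At 0 h, Vim had 198 and 226 CPM in WT and 80.3 and 66.4 in Hdac3KO, and at 24 h it had 216 and 237 in WT and 82.6 and 75.5 in Hdac3KO. Vim (vimentin) is an intermediate filament protein and was 2.88-fold lower, with a small spread in each genotype. Ina stood at 18.2 and 18.1 CPM in WT at 0 h and 17.9 and 13.8 at 24 h, against 0.818 and 2.99 in Hdac3KO at 0 h and 0.615 and 3.25 at 24 h. Ina (internexin) is a neuronal intermediate filament protein, and here the clones differed, with replicate 2 several times above replicate 1. The WT samples held 11.8 and 8.43 CPM of Ap3b2 at 0 h and 7.49 and 7.204 at 24 h, and the Hdac3KO samples 0.584 and 1.33 at 0 h and 0.439 and 0.493 at 24 h. Ap3b2 is the neuronal beta subunit of the AP-3 vesicle coat, and it was 12.3-fold lower on 5 to 16 Hdac3KO reads per sample. Ablim1, Epb41l3, Tes, Cobll1, Shank3 and Dnajc6 were also in this group, between 3.27-fold (Cobll1) and 5.85-fold (Dnajc6) lower.

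Of 27 genes of the neuronal and intermediate filament cytoskeleton tested, 17 were lower and 1 higher (median log2 -0.65). Beside these values, 10 neural markers summed to 135 to 140.4 CPM in WT and 56.6 to 64.2 in Hdac3KO. Without the 2 members among them, Map2 and Elavl3, the sums were 104 to 107 and 52.7 to 59.9, and Pax6, Neurog2, Dcx and Pou3f2 were under 1 CPM in every sample. Fewer cells with neural RNA and less RNA per cell cannot be told apart in these bulk samples, and this holds for every member.

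Metabolic enzymes and transporters were the largest group by number. For Slc27a2, Hdac3KO had 2.102 and 1.24 CPM at 0 h and 1.67 and 1.87 at 24 h, where WT had 18.3 and 15.7 at 0 h and 12.6 and 13.1 at 24 h. Slc27a2 carries very long chain fatty acids into the cell and activates them, and it had the widest gap of the group. CPM of Upp1 was 108 and 100.4 (0 h) and 122 and 109.9 (24 h) in WT and 36.3 and 39.2 (0 h) and 38.1 and 46.5 (24 h) in Hdac3KO. Upp1 (uridine phosphorylase) was 2.75-fold lower. Acsl5 and Lpl, also of fatty acid metabolism, were 4.63-fold and 3.84-fold lower. Nat8l, which makes N-acetylaspartate in neurons, held 5.13 to 6.58 CPM in WT and 0.332 to 1.76 in Hdac3KO. Gad1, the enzyme that makes GABA, and Ddc, which makes dopamine and serotonin, were 6.88-fold and 2.53-fold lower. The others were the transporters Slc16a6, Slc16a9, Slc52a3, Slc12a8, Atp10a and Atp1a4, the glycosyltransferases Fut9, St6galnac2 and B3gnt3, and Aox3, Oplah, Mboat4, Cds1, Cnnm1 and Gc, between 2.72-fold (Slc16a9) and 6.28-fold (Atp10a) lower.

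Klhl13 had the highest CPM of all members, a scale that is not corrected for gene length. In WT, Klhl13 reached 705 and 835 CPM at 0 h and 635 and 725 at 24 h, and in Hdac3KO 225 and 117 at 0 h and 238 and 130.2 at 24 h. Klhl13 is an adaptor that brings substrates to the ubiquitin ligase Cullin-3, and it is the only X-linked member besides Rhox9; its Hdac3KO replicate 2 was the lower clone at both times. Dtx3l and Parp14, an E3 ligase and an ADP-ribosyltransferase induced by interferon, lie 55.0 kb apart on chromosome 16. Dtx3l held 41.6 to 54.6 CPM in WT and 10.2 to 18.5 in Hdac3KO, and Parp14 held 15.8 to 22.1 CPM in WT and 3.07 to 7.82 in Hdac3KO. Of 39 interferon and innate immunity genes tested, 18 were lower and 3 higher (median log2 -0.42), with Jak3, Irak3, Dtx3l and Parp14 as members. Usp43, Fbxl16 and Pglyrp1 closed the group, at 5.24-fold, 2.97-fold and 3.84-fold lower. The 7 genes with no clear role here were Ccdc102a, Ccdc136, Enox1, Xkr5, Prrt4, Ndrg1 and Sh3tc1, between 2.54-fold (Xkr5) and 5.102-fold (Ccdc136) lower.

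The members were spread over the genome. They lay on all 19 autosomes and the X chromosome, with 12 on chromosome 8 and 9 of 319 expressed genes on chromosome 19 (2.82%, the highest share), against 2 of 337 on the X chromosome (0.59%) and 2 of 417 on chromosome 3 (0.48%). Pairs within 100 kb were few: Lefty2 with Lefty1, En2 with Cnpy1, Jak3 with B3gnt3, and Parp14 with Dtx3l.

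Whether the 2 clones agreed was asked for every member. The mean WT level over the level of each clone was at least 2.21-fold for all 120 genes in both clones, which the rule made so. The median was 3.67-fold in replicate 1 and 4.49-fold in replicate 2. The folds of the clones were within 1.5 times of each other for 83 genes and more than 2 times apart for 11, of which 5 were lower in replicate 1 (Lefty1, Lefty2, Ina, Adgrg6 and Trh) and 6 lower in replicate 2 (Nat8l, Ccdc136, Usp43, Arhgdib, Cnnm1 and Acsl5). These 11 were named because their folds differed.

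The rule did not use the difference between the clones, but it set an upper limit on the level of both. The share of members whose clones differed is therefore not independent of the rule. This difference was tested with edgeR's quasi-likelihood test over all genes (term for Hdac3KO replicate 2 against 1, over both times). It passed at an adjusted p under 0.05 for 28 of the 120 members (23.3%), beside 17.8% of all 13387 genes. Of these, 12 were higher in replicate 2, beside 6.85% of all genes, and 16 lower, beside 11.0%. The largest were Nat8l (log2 -2.12, SE 0.47, edgeR adjusted p = 0.00778), Ina (log2 2.09, SE 0.33, edgeR adjusted p = 0.000926), Lefty2 (log2 1.64, SE 0.11, edgeR adjusted p = 1.11e-06), Adgrg6 (log2 1.64, SE 0.25, edgeR adjusted p = 0.000742) and Trh (log2 1.48, SE 0.39, edgeR adjusted p = 0.0189). In Lefty2 both replicate 2 samples (110.2 and 96.3 CPM) lay above both replicate 1 samples (41.0 and 26.5). With any 1 Hdac3KO sample left out, 7 members passed, beside 2.80% (0 h, replicate 1 left out), 2.90% (0 h, replicate 2), 2.46% (24 h, replicate 1) and 2.44% (24 h, replicate 2) of all genes. Nat8l and Trh lost the call in each of these 4 fits (edgeR adjusted p = 0.131 to 0.132 and 0.155 to 0.228), and Adgrg6 lost it without either 0 h sample (edgeR adjusted p = 0.0596 and 0.0624), while Ina and Lefty2 passed in all 4. By voom with limma, Trh also missed the threshold (adjusted p = 0.0869).

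Clone and replicate number go together in this design. Deviations of the same replicate number also correlated across genotypes over genes (r = 0.188 to 0.221, where genes are not independent replicates), so part of a difference between replicates was shared with WT. When the WT replicate difference was subtracted, in a contrast added after seeing the data, 30 members passed (11.4% of all genes did), 23 of them among the 28. Trh moved the most among the named genes, to log2 0.69 (SE 0.21, edgeR adjusted p = 0.031), since its WT replicate 2 was also above replicate 1 at both times. Lefty2 (log2 1.76), Ina (2.22), Adgrg6 (1.69) and Nat8l (-2.36) kept their direction.

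**Figure D4:**
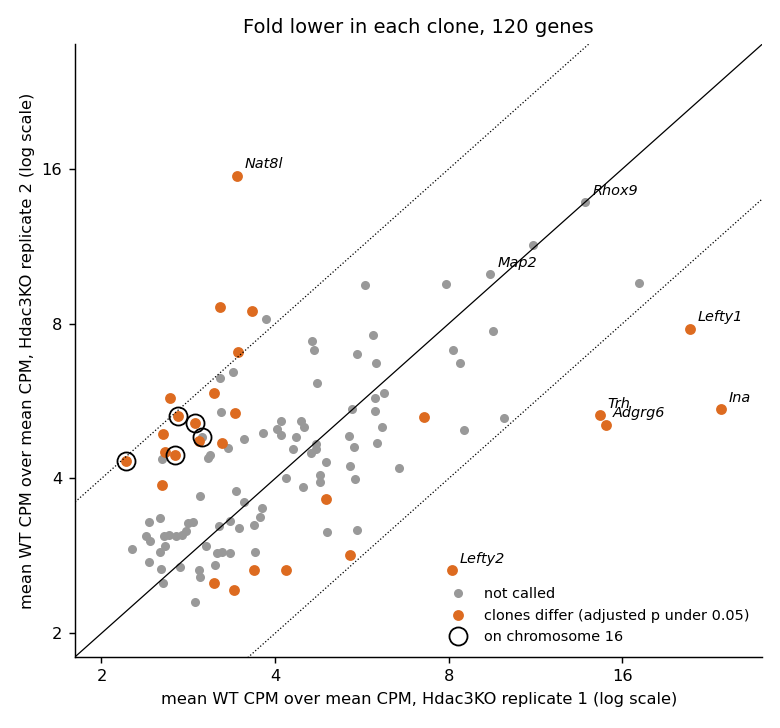
Mean WT CPM over the mean CPM of Hdac3KO replicate 1 (horizontal) and of replicate 2 (vertical), both log scale, for the 120 genes; the solid line marks equal folds, the dotted lines folds 2 times apart, orange the 28 genes whose clones differed by edgeR's test, and black rings the 5 genes on chromosome 16. All 5 ringed genes lie above the solid line, and Lefty1, Lefty2, Ina, Adgrg6 and Trh lie below the lower dotted line.

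The members on chromosome 16 were all lower in replicate 2 than in replicate 1: Cxadr (5.12-fold against 2.91-fold below WT), Dtx3l (4.45 and 2.69), Robo1 (4.33 and 2.21), Slc12a8 (4.82 and 2.98) and Parp14 (5.30 and 2.71). Of these, 4 passed the test between clones, beside 58.8% of 425 chromosome 16 genes tested. Over 295 genes of chromosome 16 the median log2 of replicate 2 over replicate 1 was -0.42, and over the other chromosomes it lay between -0.03 and 0.05. With chromosome 16 left out of the test, a setting added after seeing the data, 23 members passed, beside 15.8% of the 12718 genes placed on other chromosomes. That these 5 genes were lower than WT in both clones was fixed by the rule.

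Next, the reads that could be assigned to the B6 or the Cast allele were used to ask whether both alleles were lower. Between 30.1% and 31.6% of the reads of a sample carried that information. Of the 120 members, 82 had at least 10 reads of each allele in each WT sample, and in 82 of 82 the B6 values and the Cast values of all 4 Hdac3KO samples lay below those of all 4 WT samples, beside 9.49% of 7711 genes treated alike. The read minimum was set in WT, where the rule made these genes high, so nothing is read from that count. The highest Hdac3KO value was at most 0.5 times the lowest WT value on both alleles for 44 of the 82, beside 0.584% of the 7711. That background share is 45 genes, these 44 among them, so the contrast between the shares came from the selection. Allelic reads are part of the totals on which the genes were chosen. The allelic values therefore say how the lower total was divided and are no separate evidence that it was lower. The median fold was 3.75 on the B6 allele and 3.88 on the Cast allele, 59 genes had folds within 1.5 times of each other, and 7 had folds more than 2 times apart. The other 38 members had too few reads of 1 or both alleles in WT. Among them both alleles lay below WT in all samples for 20, only B6 for 13, only Cast for 4 and neither for 1. Some of these had nearly all WT reads on 1 allele: Aox3, an aldehyde oxidase, had 225 B6 and 2 Cast reads over the WT samples and 60 and 15 over the Hdac3KO samples, and Irak3, an inhibitor of Toll-like receptor signalling, had 740 and 14 in WT and 191 and 13 in Hdac3KO. Both were chosen after their values were seen.

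**Figure D5:**
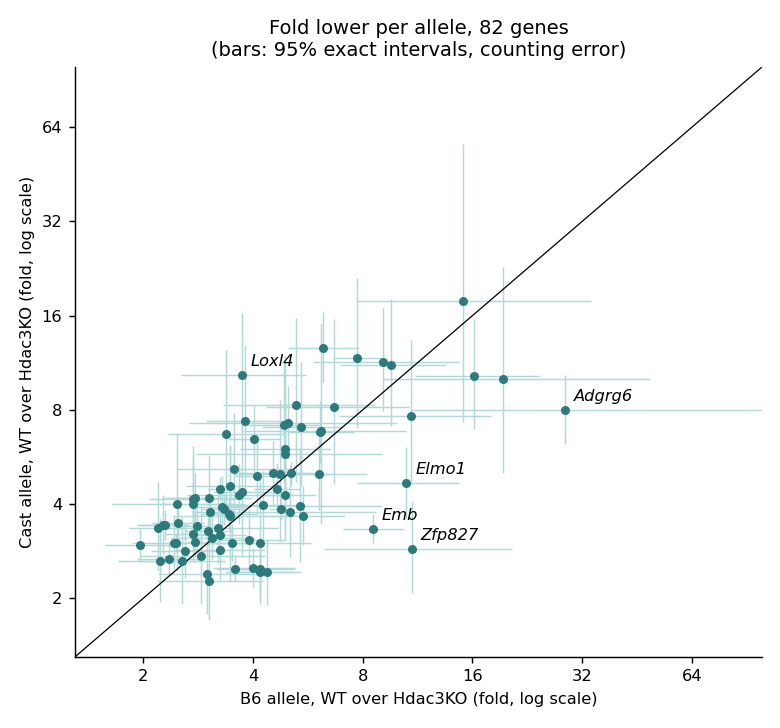
Fold by which the summed reads of each allele were lower in Hdac3KO (B6 horizontal, Cast vertical, log scale, per total reads) for the 82 genes with enough allelic reads; bars are exact 95% intervals for counting error and the line marks equal folds. Most points lie near the line, while Zfp827, Adgrg6, Emb and Elmo1 lie on its B6 side and Loxl4 on its Cast side.

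Dppa3 illustrates a gene expressed unequally from its alleles in WT. Its WT samples held 152 and 142 B6 reads at 0 h and 102 and 87 at 24 h, with 747, 608, 585 and 501 Cast reads in the same order, and its Hdac3KO samples held 39, 23, 34 and 20 B6 reads and 178, 163, 121 and 131 Cast reads. The B6 allele was 5.10-fold lower and the Cast allele 5.07-fold, so the share of B6 stayed at 16.5% in WT and 16.4% in Hdac3KO. In all, 9 members drew more than 80% of their WT allelic reads from B6 and 10 less than 20%. Klhl13 on the X chromosome was 3.35-fold lower on B6 and 4.70-fold lower on Cast, over both times. Its B6 share in WT was 54.4% and 53.0% at 0 h and 46.8% and 43.9% at 24 h. In Hdac3KO its B6 share was 61.75% and 55.5% at 0 h and 55.8% and 57.3% at 24 h. The median B6 share of X chromosome genes at 24 h was 0.286 and 0.278 in WT and 0.404 and 0.395 in Hdac3KO. The part of Xist silencing in the Klhl13 folds was not tested.

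Among the 82 members with enough reads, the 5 whose alleles differed the most in their fold were Zfp827, Adgrg6, Loxl4, Emb and Elmo1; their folds are given on the summed reads with exact 95% intervals that cover counting error only. Zfp827 was 10.9-fold lower on B6 (6.26 to 20.5; 125 reads in WT and 14 in Hdac3KO) and 2.88-fold on Cast (2.07 to 4.05; 125 and 53 reads). Adgrg6 was 28.7-fold lower on B6 (10.8 to 107; 94 and 4 reads) and 7.98-fold on Cast (6.24 to 10.3; 484 and 74 reads). Loxl4 went the other way, with 3.73-fold on B6 (2.54 to 5.596) and 10.3-fold on Cast (6.79 to 16.3). Emb, with the most reads of these, was 8.53-fold lower on B6 (7.05 to 10.4) and 3.33-fold on Cast (3.00 to 3.71), and Elmo1 10.5-fold (7.72 to 14.7) and 4.66-fold (3.60 to 6.09). In Emb the B6 share was 39.6% in WT, 21.9% in Hdac3KO replicate 1 and 17.9% in replicate 2, so both clones shifted the same way. For 62 of the 82 members the intervals of the 2 alleles overlapped, and for 20 they did not. These intervals leave out the spread between samples, and no such count was made over all genes. Nothing is therefore read from the 20.

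Between the clones, the B6 share itself was tested with edgeR's quasi-likelihood test on B6 and Cast reads for the 84 members with at least 10 allelic reads in each sample. In simulated counts this test recovered 52 of 100 genes given a log2 change of 1, so a member that did not pass may still differ. The B6 share differed for 1 of 84 (1.19%), beside 3.01% of 9595 genes. That gene was Cxadr, the coxsackie and adenovirus receptor of cell junctions on chromosome 16 (log2 of the B6 to Cast ratio 1.24 higher in replicate 2, SE 0.27, edgeR adjusted p = 0.000515). Its B6 share was 38.8% in WT, 36.3% in replicate 1 and 57.1% in replicate 2, with exact 95% intervals of 31.9% to 40.8% and 49.7% to 64.2%. In reads, the Hdac3KO samples held 104 B6 and 171 Cast (0 h, replicate 1), 62 and 41 (0 h, replicate 2), 64 and 124 (24 h, replicate 1) and 47 and 41 (24 h, replicate 2). Without either Hdac3KO sample at 0 h, or with DESeq2, 0 members passed.

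The last question was whether the members changed with 24 h of DOX. By edgeR's quasi-likelihood test without pairing, 0 of 120 changed in WT, beside 0.209% of 13387 genes, and 0 of 120 in Hdac3KO, beside 0.0224%; unadjusted p under 0.05 was reached by 8 and 7 members, beside 7.48% and 2.01% of all genes, and DESeq2 and voom with limma also called 0. Samples of the same number deviated together within a genotype (r = 0.297 in WT and 0.65 in Hdac3KO, across genes), and in Hdac3KO they are also of the same clone. With a block for the replicate within each genotype, 15 members (12.5%) changed in WT, beside 9.99% of all genes, and 4 (3.33%) in Hdac3KO, beside 1.67%. In WT, 13 were lower and 2 higher, and in Hdac3KO all 4 were lower. Fgfr2 was the largest in both, with log2 -0.996 in WT (SE 0.15, edgeR adjusted p = 2.07e-05 with the block) and -1.24 in Hdac3KO (SE 0.27, edgeR adjusted p = 0.0084 with the block). Lefty1 (log2 -0.78) and Trh (-0.53) were lower in WT, Lefty2 was lower in both (-0.26 and -0.38), and Trh in Hdac3KO too (-0.82), while Slc52a3 (0.60) and Dtx3l (0.28) were higher in WT.

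The change with DOX was not found to differ by genotype for any member. The interaction passed for 0 of 120 without the block, beside 0% of all genes, and for 0 of 120 with it, beside 1.14%. Without the block, 3 members (Atp1a4, Map2 and Ndrg1) had an unadjusted p under 0.05, beside 254 of all 13387 genes. The median fold between WT and Hdac3KO was 4.06 at 0 h and 3.70 at 24 h. DOX and time cannot be told apart, since no sample was kept 24 h without DOX.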

How the data were processed

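RNA-seq was made from WT TX1072 ESCs and 2 Hdac3KO clones at 0 h and after 24 h of DOX, with 2 samples per group and 8 in all. According to the methods and the processing notes, the authors depleted rRNA, sequenced paired ends, mapped with TopHat2 2.1.0 to mm10, split reads by allele with SNPs and counted reads over exons with featureCounts 1.5.1 using strand. The deposited tables hold raw counts per gene (all reads, B6 reads and Cast reads) and the fraction of B6 among allelic reads, as calculated by the authors, which was not used in tests. Clones are the Hdac3KO replicates, per the study's methods.

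CPM was 1000000 times the count divided by the column total. The members and the gene lists were chosen with earlier results of these data known. Tests were edgeR 4.0.16 quasi-likelihood fits (R 4.3.3, TMM) on all genes with at least 1 CPM in 2 samples, with 1 mean per group and Benjamini-Hochberg adjustment over all genes tested; SE is the log2 difference over the root of F. The clone fit adds a term for Hdac3KO replicate 2. The allelic fit has an effect per sample and B6 terms, on genes with at least 10 allelic reads in every sample. The smallest samples hold few reads per gene, and intervals cover counting error only. The scripts were tested on simulated counts. Alternatives used DESeq2 1.42.0, limma 3.58.1, other filters, a replicate block and leaving out each sample. Python 3.11.15 with pandas 2.3.3 and scipy 1.17.1 did the rest. Positions come from GENCODE M21 (GRCm38) and promoters from RefSeq (GRCm38.p6), which held 84 of the 120. Same-numbered samples of a genotype deviated together (r = 0.297 in WT and 0.65 in Hdac3KO), and in Hdac3KO they are also the same clone. WT replicates are samples of 1 line, so p-values measure the spread between these samples, which may be technical. The test of Hdac3KO against WT has no term for the clone, so its p-values do not measure the spread between the 2 clones. No 2 samples of a group agreed within sampling noise (chi-square per degree of freedom of 3.73 or more).

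Values are given in full for the 12 members with the widest gap, the 6 with the highest CPM, up to 4 per list, up to 5 called per test, the 3 nearest each threshold on both sides and the 5 whose alleles differed the most; the other members are named by role with their range, except for a few items that are not reported here by name.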

Additional observations from a re-analysis of the deposited data

Results flagged for a closer look

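A difference between the Hdac3KO replicates, which are the 2 clones, was tested: 28 members differed by edgeR's quasi-likelihood test (adjusted p under 0.05; 17.8% of all genes did). The 5 largest were Nat8l (log2 -2.121 in replicate 2 against 1), Ina (2.089), Lefty2 (1.643), Adgrg6 (1.635) and Trh (1.481). Nat8l and Trh lost the call with any 1 Hdac3KO sample left out, Adgrg6 without either 0 h sample, and Trh was at 0.686 once the WT replicate difference was subtracted. The effect of the replicate number and that of the clone cannot be told apart. On the allelic reads, 1 member had a different B6 share between the clones, Cxadr on chromosome 16 (log2 1.238), where the median B6 share of the whole chromosome was 0.5 and 0.493 in replicate 2 and 0.333 in replicate 1.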

How the results depend on the processing

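The number of members depends on the limits: 120 became 78 with a floor of 10 CPM, 35 with a ratio of at most 1 to 3, 259 on the 0 h samples only and 201 on the 24 h samples only; leaving out 1 sample gave 128 to 146, and TMM library sizes gave 106, all of them among the 120. The count with both alleles lower was 82 to 99 without 1 sample. Genes lower in Hdac3KO over the whole table numbered 1360 to 2178 without 1 sample, lowest without WT_24h replicate 1 (1360) and replicate 2 (1407). The replicate block raised the members changed by DOX from 0 to 15 in WT and 4 in Hdac3KO, and the fit without a filter on low counts gave 2 and 1; the range without 1 sample was 0 to 0 for both and for the interaction. With the block, the genotype contrast covered replicate 1 of each genotype only, and 3161 genes over the whole table were lower in Hdac3KO. The fit without the block, over both replicates, gave 2178, so the 2 numbers are of different comparisons. Genes whose DOX change differed between genotypes went from 0 to 153 with the block, none of them a member. Members that differed between the clones numbered 18 by DESeq2 and 7 to 32 without 1 sample, with 7 for each Hdac3KO sample left out. Those with a different B6 share numbered 0 by DESeq2, 0 without chromosome 16 (added after seeing the data) and 0 to 1 without 1 sample. With a lone sample left in a group, its spread was taken from the other groups. Why these counts moved was not tested.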
